A study of Arabidopsis thaliana with 12 samples.

Results

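Plastid chaperones and chaperonins are the nuclear-encoded proteins that fold, hold and disaggregate other proteins inside plastids. The 11 genes described here were listed by gene ID, with earlier results of these data known. All 11 were among the 36917 gene IDs counted. They are the chaperonin subunit genes CPN60A1, CPN60B1, CPN60B2 and CPN60B3, the co-chaperonin genes CPN20 and CPN10, the HSP90 gene CR88, the HSP70 genes cpHsc70-1 and cpHsc70-2, the disaggregase gene CLPB3 and the small heat shock protein gene HSP21. Their counts were compared in 4-d-old Arabidopsis thaliana seedlings of 4 genotypes with 3 libraries each: wild type (Col-0), gun1-103 and fug1-3, which are both lines of the SAIL collection of T-DNA insertions, and gun1-103 fug1-3, which carries both alleles. They are called gun1, fug1 and gun1 fug1 below, and each library is named by genotype and replicate. All seedlings grew on sucrose medium at 22 °C with 16 h of light and 8 h of dark, and had no heat or drug treatment in the labels. FUG1 encodes an initiation factor of plastid translation. GUN1 encodes a pentatricopeptide repeat protein of plastids with a role in retrograde signalling, by which plastids influence nuclear genes.

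Most proteins of a plastid are made in the cytosol and imported unfolded, and the plastid folds them with bacterial-type chaperones. HSP70 and HSP90 bind incoming and unstable proteins, CPN60 alpha and beta subunits build a barrel in which proteins such as the large Rubisco subunit fold, and CPN20 and CPN10 form its lid. CLPB3 pulls proteins out of aggregates, and HSP21 binds unfolding proteins near the thylakoid membrane and is known as a heat-induced gene.

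Total counts were 8519197 to 12360838 per library. The library gun1 fug1 3 stood apart: 23881 genes had no count in it against 13359 to 16417 in the others, and its TMM scaling factor was 0.0723 against 0.80 to 2.05. Its counts correlated with those of the other gun1 fug1 libraries at r = 0.72 and 0.73 across genes, where other pairs of replicates gave 0.92 to 0.97, so member values and calls that involve gun1 fug1 are also given without it. Against wild type, the GUN1 transcript had a log2 fold change of -2.03 in gun1 and -1.93 in gun1 fug1, and that of FUG1 -2.02 in fug1 and -1.82 in gun1 fug1, all called. The 5 leaf marker genes were abundant in every library, with a summed level of 8450 to 14300 CPM, the count scaled by the effective size of the library. Nothing in the labels says that replicates were separate cultures, so p-values measure the spread between these libraries.

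The 250 bases before the annotated start of 4 members are printed here, those of HSP21, whose counts were mostly in gun1 fug1, and of CPN60B2, cpHsc70-1 and CR88, which were called in comparisons with gun1 fug1. CPN60B1 was called in the same kind of comparison, and its window, which overlaps the neighbouring gene AT1G55500, is not printed. The window of cpHsc70-1 overlaps the locus AT4G03095. The sequences are from the TAIR10.1 genome, read 5′ to 3′ on the strand of the gene, and capitals mark the letters GAANNTTC, a heat shock element of 2 units that reads the same on both strands.
HSP21, chr4:13819972-13820221, minus strand: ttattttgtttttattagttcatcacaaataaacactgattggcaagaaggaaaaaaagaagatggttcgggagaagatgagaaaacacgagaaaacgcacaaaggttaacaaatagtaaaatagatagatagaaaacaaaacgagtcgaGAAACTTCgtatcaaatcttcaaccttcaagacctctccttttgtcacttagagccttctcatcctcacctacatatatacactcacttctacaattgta
CPN60B2, chr3:4388965-4389214, plus strand: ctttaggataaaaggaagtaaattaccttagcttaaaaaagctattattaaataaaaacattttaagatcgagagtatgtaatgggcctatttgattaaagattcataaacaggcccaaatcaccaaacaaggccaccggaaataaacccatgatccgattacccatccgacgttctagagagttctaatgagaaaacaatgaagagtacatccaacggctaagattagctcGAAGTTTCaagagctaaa
cpHsc70-1, chr4:12589560-12589809, plus strand: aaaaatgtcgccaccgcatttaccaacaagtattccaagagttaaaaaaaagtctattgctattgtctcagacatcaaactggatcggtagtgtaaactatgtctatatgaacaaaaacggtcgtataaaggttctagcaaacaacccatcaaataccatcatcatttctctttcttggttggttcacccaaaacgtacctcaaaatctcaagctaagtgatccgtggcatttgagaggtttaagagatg
CR88, chr2:1281504-1281753, plus strand: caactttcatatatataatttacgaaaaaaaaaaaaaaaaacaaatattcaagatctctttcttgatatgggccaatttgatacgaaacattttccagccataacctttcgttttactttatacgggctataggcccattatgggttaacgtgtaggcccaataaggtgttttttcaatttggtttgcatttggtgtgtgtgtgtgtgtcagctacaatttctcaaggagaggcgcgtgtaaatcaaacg
Among the 11 members, GAANNTTC was found in HSP21, ending 92 bases before the start, and in CPN60B2, ending 10 bases before it. The same letters were in 9.55% of 27443 gene windows of this length. The element of 3 units, GAANNTTC followed directly by NNGAA, or its reverse complement, was in no member window and in 0.386% of all windows. The G-box CACGTG was in the windows of CPN60B3 and CLPB3 and in 6.49% of all windows. A match of letters is a description and not a bound site.

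Levels of different genes were compared per length, as CPM per kb of exon. In wild type CPN20 had 26.5 ± 0.957 CPM per kb (SD, n = 3) and CPN60A1 21.5 ± 0.954. cpHsc70-1 followed at 13.8 ± 0.189 and cpHsc70-2 at 7.36 ± 0.855. CPN10 (6.20 ± 0.902), CLPB3 (4.90 ± 1.49), CPN60B1 (4.50 ± 0.853), CR88 (4.09 ± 1.14) and CPN60B2 (3.93 ± 0.860) came next, and each lay within the summed SD of its neighbours in that order. CPN60B3 was lower, at 0.376 ± 0.0737. HSP21 was lowest, at 0.0368 ± 0.0319. In gun1 fug1 CPN60A1 (24.6 ± 1.6 CPM per kb), cpHsc70-1 (24.4 ± 2.32) and CPN20 (21.0 ± 2.59) came first and lay within their summed SDs. CPN60B2 had 10.1 ± 3.18, HSP21 6.67 ± 3.78 and CPN10 3.37 ± 2.23, and CPN60B3 was lowest at 0.153 ± 0.14. In bulk seedlings, fewer cells of a type and less RNA per cell cannot be told apart.

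**Figure D1:**
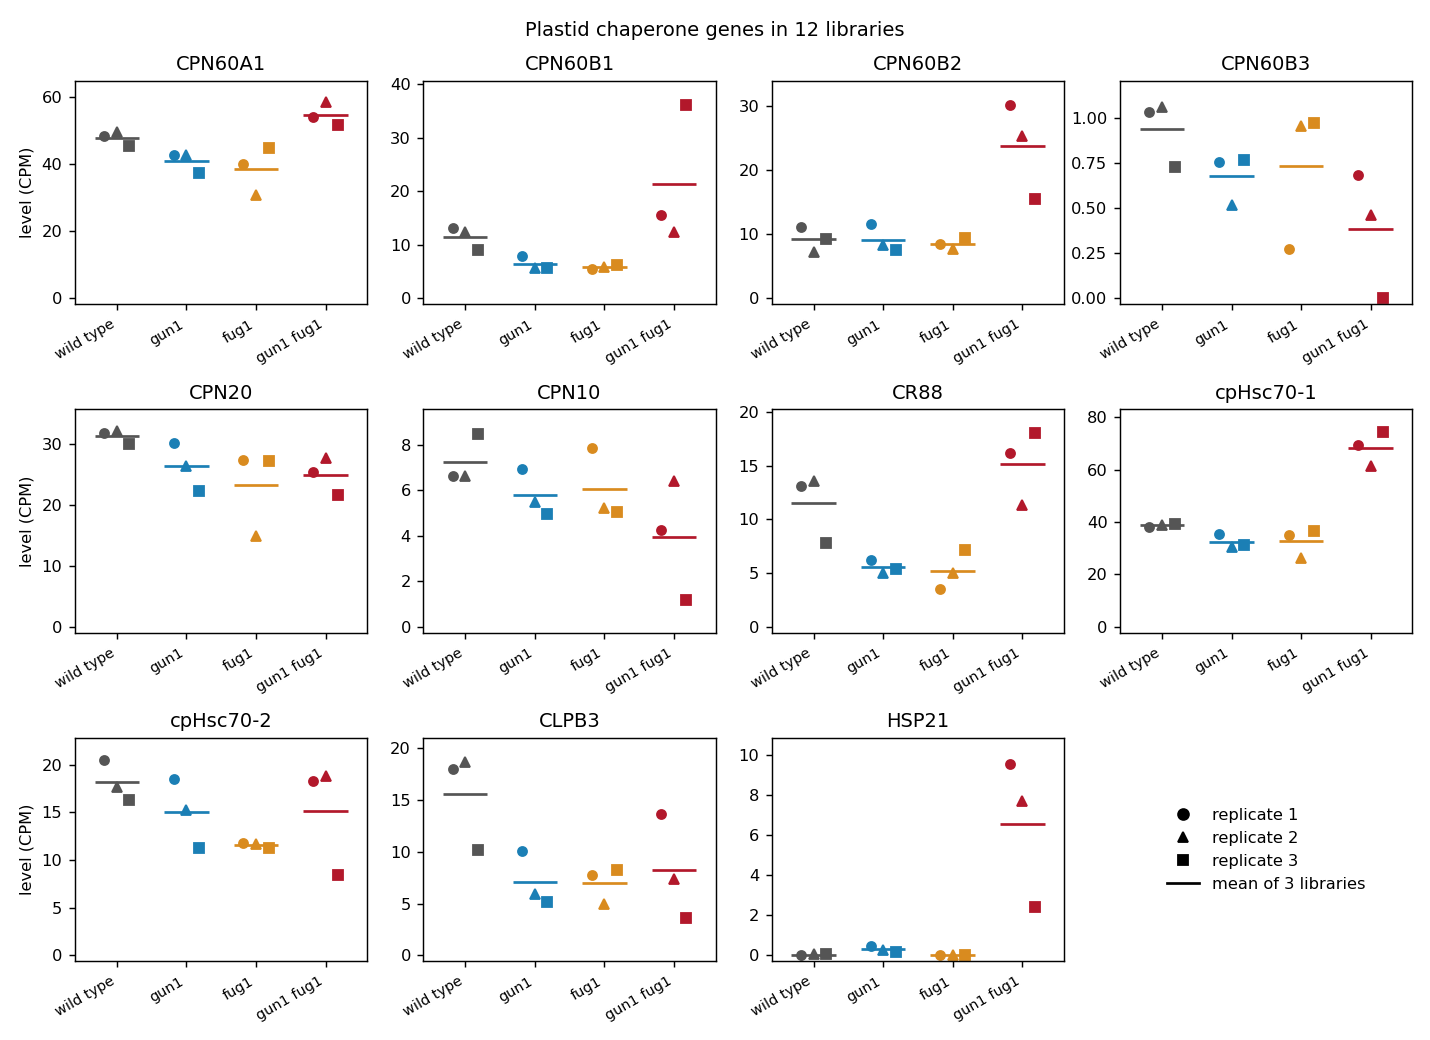
Level in CPM of each of the 11 genes (vertical axes, linear and starting near 0, with a scale for each gene) in the 3 libraries of each genotype (circle, triangle and square for replicates 1, 2 and 3; line for the mean of 3 libraries). CPN60B2 was between 15.6 and 30.3 CPM in gun1 fug1 and at most 11.6 elsewhere, and HSP21 was near 0 outside gun1 fug1.

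Of the 4 barrel subunit genes, CPN60B2 was called higher in gun1 fug1 than in wild type and CPN60B1 lower in fug1. CPN60A1 (AT2G28000, chromosome 2, 11926446 to 11929488, plus strand), the alpha subunit, had 48.5, 49.5 and 45.5 CPM in the 3 wild-type libraries, 42.6, 42.7 and 37.4 in gun1, 40.1, 30.8 and 44.7 in fug1, and 54.0, 58.6 and 51.6 in gun1 fug1. All gun1 and fug1 libraries lay below all wild-type libraries, and all gun1 fug1 libraries above them, but no difference was called (log2 fold changes against wild type -0.23 ± 0.20, -0.31 ± 0.20 and 0.20 ± 0.20, edgeR adjusted p = 0.539, 0.288 and 0.506).

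CPN60B1 (AT1G55490, chromosome 1, 20715563 to 20719261, minus strand), a beta subunit, had 13.1, 12.3 and 8.98 CPM in wild type, 7.98, 5.75 and 5.66 in gun1, 5.43, 5.95 and 6.20 in fug1, and 15.6, 12.3 and 36.0 in gun1 fug1. It was low in every gun1 and fug1 library, without overlap with wild type, and gun1 fug1 3 was far above the other libraries. CPN60B1 fell in fug1 (log2 fold change -0.96 ± 0.27 (SE), edgeR adjusted p = 0.0177), and its value in gun1 was -0.82 ± 0.26 (adjusted p = 0.0605). In gun1 it was called lower without wild type 3, gun1 1, gun1 fug1 2 or gun1 fug1 3 (adjusted p = 0.021, 0.0186, 0.0472 and 0.00918). It rose in gun1 fug1 against gun1 (1.42 ± 0.28, adjusted p = 0.00827) and against fug1 (1.56 ± 0.29, adjusted p = 0.0163), and was 0.59 ± 0.27 against wild type (adjusted p = 0.117). Without gun1 fug1 3 the last 3 values were 1.12, 1.25 and 0.28. The gene shares 49 exonic bases with ZKT on the other strand, and the strand setting of the counting is not given in the sources used here. For that reason its reads cannot be told apart from those of ZKT in that stretch. ZKT, a thylakoid protein gene, had 6 to 697 counts per library against 30 to 330 for CPN60B1. It fell in all 3 mutants (-1.43, -1.88 and -1.64).

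CPN60B2 (AT3G13470, chromosome 3, 4389215 to 4393015, plus strand), whose upstream window is printed above, encodes another beta subunit. It had 11.2, 7.18 and 9.32 CPM in wild type, 11.6, 8.32 and 7.58 in gun1, 8.56, 7.74 and 9.39 in fug1, and 30.3, 25.4 and 15.6 in gun1 fug1. Every gun1 fug1 library was above all 9 others, among which the genotypes overlapped. CPN60B2 rose in gun1 fug1 against wild type (1.47 ± 0.23, edgeR adjusted p = 9.94e-05), gun1 (1.47 ± 0.23, adjusted p = 0.000902) and fug1 (1.58 ± 0.24, adjusted p = 0.00123). These were 1.59, 1.61 and 1.70 without gun1 fug1 3. It shares 152 exonic bases with AT3G13480, which had at most 44 counts in any library against 13 to 399 for CPN60B2.

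CPN60B3 (AT5G56500, chromosome 5, 22873666 to 22877407, plus strand), the least abundant subunit gene, had 26, 20 and 13 counts in wild type, against 9, 5 and 0 in gun1 fug1. Its levels were 0.725 to 1.06 CPM in wild type, 0.515 to 0.765 in gun1, 0.272 to 0.968 in fug1 and 0 to 0.683 in gun1 fug1, and no difference was detectable at this depth (largest against wild type -0.76 ± 0.52, edgeR adjusted p = 0.305).

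The lid genes showed no called difference. CPN20 (AT5G20720, chromosome 5, 7014662 to 7016698, plus strand), which joins CPN10-like domains in tandem, had 31.8, 32.1 and 30 CPM in wild type, 30.1, 26.4 and 22.3 in gun1, 27.4, 14.9 and 27.2 in fug1, and 25.3, 27.7 and 21.6 in gun1 fug1. All fug1 and gun1 fug1 libraries were below all wild-type libraries. The log2 fold changes were -0.25 ± 0.22, -0.43 ± 0.22 and -0.30 ± 0.23 (edgeR adjusted p = 0.529, 0.171 and 0.365). CPN10 (AT2G44650, chromosome 2, 18419370 to 18421110, minus strand) had 6.65, 6.65 and 8.48 CPM in wild type, 6.95, 5.49 and 4.98 in gun1, 7.88, 5.24 and 5.03 in fug1, and 4.25, 6.41 and 1.2 in gun1 fug1. Its gun1 fug1 libraries were below those of wild type, the last resting on 1 count, with -0.55 ± 0.27 (adjusted p = 0.147). CPN20 shares 211 exonic bases with AT5G03195, a non-coding RNA locus, and 70 with NPH4, and CPN10 shares 279 with AT2G44660 on the same strand and 27 with AT2G44640.

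CR88 (AT2G04030, chromosome 2, 1281754 to 1286144, plus strand), the plastid HSP90, was called lower in both gun1 and fug1. It had 13.1, 13.6 and 7.81 CPM in wild type, 6.26, 5.06 and 5.36 in gun1, 3.53, 5.0 and 7.16 in fug1, and 16.2, 11.3 and 18.0 in gun1 fug1. Each gun1 and fug1 library was below each library of wild type and of gun1 fug1, and the last pair of genotypes overlapped. The log2 fold change was -1.04 ± 0.24 in gun1 (edgeR adjusted p = 0.0137) and -1.11 ± 0.25 in fug1 (adjusted p = 0.00525). The difference in gun1 was not called without wild type 1, wild type 2, gun1 2 or gun1 3 (adjusted p = 0.0767, 0.0978, 0.0748 and 0.0632), and that in fug1 was called without each library in turn. Against wild type, gun1 fug1 gave 0.32 ± 0.25 (adjusted p = 0.371). Against gun1 and fug1 it rose by 1.37 ± 0.26 (adjusted p = 0.00609) and 1.43 ± 0.27 (adjusted p = 0.0163), which were 1.32 and 1.38 without gun1 fug1 3.

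Of the paired plastid HSP70 genes, cpHsc70-1 was called higher in gun1 fug1 and cpHsc70-2 lower in fug1. cpHsc70-1 (AT4G24280, chromosome 4, 12589810 to 12593800, plus strand) had 38.2, 38.7 and 39.3 CPM in wild type, 35.6, 30.6 and 31.4 in gun1, 35, 26.3 and 36.6 in fug1, and 69.3, 61.5 and 74.4 in gun1 fug1. Its gun1 fug1 libraries were all above 60 CPM and all others below 40, with gun1 fug1 3 among the high libraries. cpHsc70-1 rose in gun1 fug1 against wild type (0.81 ± 0.20, edgeR adjusted p = 0.00618), a sign that flips to -0.37 where libraries are scaled by their total counts alone. That scaling moves the median of all genes to -1.17, and cpHsc70-1 lies 0.80 above it, against 0.84 with TMM factors. Centring on the median is close to what TMM factors do, so these distances cannot decide which sign holds. With TMM factors cpHsc70-1 rose against gun1 (1.06 ± 0.20, edgeR adjusted p = 0.00584) and fug1 (1.06 ± 0.20, adjusted p = 0.0166). Without gun1 fug1 3 the values against wild type, gun1 and fug1 were 0.76, 1.02 and 1.01. The rise against wild type was not called without wild type 1 or 2 (adjusted p = 0.0543 and 0.0534).

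cpHsc70-2 (AT5G49910, chromosome 5, 20303334 to 20306469, plus strand) had 20.5, 17.7 and 16.3 CPM in wild type, 18.5, 15.2 and 11.3 in gun1, 11.8, 11.7 and 11.3 in fug1, and 18.3, 18.8 and 8.40 in gun1 fug1. The fug1 libraries lay below those of wild type, and the last library of gun1 fug1, with 7 counts, was lowest of all. cpHsc70-2 fell in fug1 (-0.65 ± 0.22, edgeR adjusted p = 0.0410) while gun1 gave -0.28 ± 0.21 (adjusted p = 0.474) and gun1 fug1 -0.10 ± 0.22 (adjusted p = 0.772). The fall in fug1 was not called in 7 of 12 fits that left out 1 library: without wild type 1 or 2 (adjusted p = 0.151 and 0.0973), gun1 2 (0.0616), fug1 1, 2 or 3 (0.107, 0.110 and 0.129) or gun1 fug1 1 (0.0582).

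CLPB3 (AT5G15450, chromosome 5, 5014212 to 5018347, minus strand), the plastid HSP100 disaggregase, had 18.0, 18.7 and 10.2 CPM in wild type, 10.1, 5.92 and 5.13 in gun1, 7.74, 5.0 and 8.23 in fug1, and 13.7, 7.43 and 3.6 in gun1 fug1. All gun1 and fug1 libraries were below all wild-type libraries, and gun1 fug1, in which the last library had 3 counts, overlapped with wild type. CLPB3 fell in fug1 (-1.16 ± 0.34, edgeR adjusted p = 0.0293), gun1 gave a like value of -1.14 ± 0.33 (adjusted p = 0.0538), and gun1 fug1 gave -0.67 ± 0.34 (adjusted p = 0.179). In gun1 it was called lower without wild type 3, gun1 1, gun1 fug1 1 or gun1 fug1 3 (adjusted p = 0.00885, 0.00839, 0.025 and 0.0411). The call in fug1 was lost without wild type 1 or 2 (adjusted p = 0.104 and 0.105) and without fug1 1, 2 or 3 (0.0773, 0.108 and 0.0642). The call for CPN60B1 in fug1 was lost without the same 5 libraries (0.0660, 0.0587, 0.0698, 0.0561 and 0.0558). CLPB3 shares 70 exonic bases with EDL1, which had at most 79 counts.

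**Figure D2:**
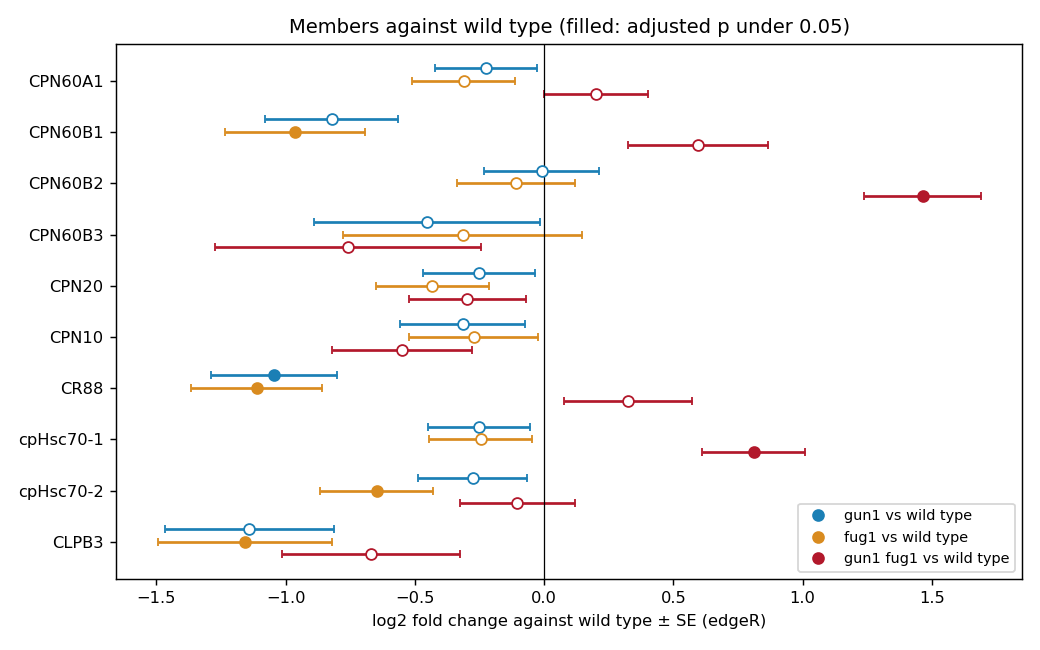
Log2 fold change ± SE against wild type (horizontal axis, edgeR) of the 10 genes tested, in gun1, fug1 and gun1 fug1 (colours); filled points had an adjusted p under 0.05. CR88 fell in gun1 and fug1, and CPN60B2 (1.47) and cpHsc70-1 (0.81) rose in gun1 fug1.

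Counted over the 10 members that passed the filter on low counts, 1 fell in gun1, against 2.42% of the 15371 genes tested that were lower and 3.52% that were higher. In fug1 4 fell (CPN60B1, CR88, cpHsc70-2 and CLPB3), where 7.88% of genes were lower and 9.94% higher, and none rose in either (edgeR, DESeq2 or limma-voom, and none at an unadjusted p under 0.05). The median log2 fold change of the members was -0.30 in gun1 and -0.38 in fug1, all 10 values being below 0, and over all genes tested it was 0.02 and 0.00. The count in gun1 was 0 without wild type 1, wild type 2, gun1 2 or gun1 3, 3 without wild type 3, gun1 1 or gun1 fug1 3, and 2 without gun1 fug1 1 or 2. The count in fug1 was 1 without wild type 1, wild type 2 or any fug1 library. In gun1 fug1 2 of 10 members rose against wild type, which is near the 12% of all genes that did, and none fell, where 9.88% of genes did (edgeR, none at an unadjusted p under 0.05 and none by DESeq2 or limma-voom). The count of rises was 1 without wild type 1 or 2 and 3 without gun1 fug1 2, where CPN60B1 was added (adjusted p = 0.0461). CLPB3 was called lower without wild type 3 or gun1 fug1 1 (0.0420 and 0.0428). Without gun1 fug1 3, CPN60B2 and cpHsc70-1 remained the called members of the 10, and the uncalled ones ran from -0.69 for CPN60B3, -0.56 for CLPB3, -0.45 for CPN10 and -0.24 for CPN20 to 0.03 for cpHsc70-2, 0.23 for CPN60A1, 0.26 for CR88 and 0.28 for CPN60B1. The comparisons with wild type share the wild-type libraries.

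Several members were higher in gun1 fug1 than in gun1 or fug1. Against gun1 4 of 10 members rose, where 1.61% of genes were higher and 1.48% lower, and against fug1 4 rose, where 0.163% were higher and 0.104% lower. They were CPN60B1, CPN60B2, CR88 and cpHsc70-1 in both, and none fell (edgeR, DESeq2 or limma-voom, and none at an unadjusted p under 0.05). The medians over members were 0.45 and 0.53, beside -0.02 and -0.02 over all genes. Against fug1 the count was 1 without fug1 1, fug1 2 or gun1 fug1 1 and 2 without fug1 3, while CPN60B2 was called in every such fit. The highest adjusted p of the other 3 was 0.0981 for CPN60B1 (without fug1 1), 0.255 for CR88 (without gun1 fug1 1) and 0.197 for cpHsc70-1 (without fug1 2). The calls of cpHsc70-1 were also lost without wild type 1 or 2 (0.0531 and 0.0606). Against gun1, CR88 was not called without gun1 fug1 1 (0.0939) and cpHsc70-1 not without gun1 2 (0.0517). Between fug1 and gun1 no member was called, none had an unadjusted p under 0.05, and DESeq2 and limma-voom called none. There 0.0195% of genes were higher and 0.00651% lower in fug1, and the member values ran from -0.37 to 0.14.

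The interaction compares what gun1-103 changed in the presence of fug1-3 with what it changed without it. From the log2 difference between gun1 fug1 and fug1 it subtracts that between gun1 and wild type. It was called, above 0, for 4 of 10 members, where 0.8% of genes were called higher and 0.54% lower. CR88 had 2.48 ± 0.37 (edgeR adjusted p = 0.00208) and CPN60B1 2.38 ± 0.39 (adjusted p = 0.00562). CPN60B2 had 1.58 ± 0.32 (adjusted p = 0.0175) and cpHsc70-1 1.31 ± 0.28 (adjusted p = 0.0217). For CR88 and CPN60B1 the difference made by gun1-103 was negative in the wild-type background and positive in fug1, and for CPN60B2 it was -0.01 ± 0.22 and 1.58 ± 0.24. The other 6 estimates, from 0.01 for CPN60B3 to 1.63 ± 0.49 for CLPB3 (adjusted p = 0.108), were not called, and the median of all 10 was 1.06, beside -0.08 over all genes.

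The interaction of CR88 and CPN60B1 was called without each of the 12 libraries in turn, with adjusted p up to 0.0164 and 0.0286. That of CPN60B2 was not called without wild type 1, gun1 2, fug1 1, fug1 2 or gun1 fug1 1 (adjusted p = 0.0705, 0.0646, 0.0570, 0.0641 and 0.110). That of cpHsc70-1 was called without wild type 3, gun1 1, gun1 fug1 2 or gun1 fug1 3, and not without any of the other 8 libraries (adjusted p = 0.0558 to 0.103). Without gun1 fug1 3 the 4 values were 2.44, 2.09, 1.72 and 1.27, and 5 members were called, cpHsc70-2 being the addition.

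**Figure D3:**
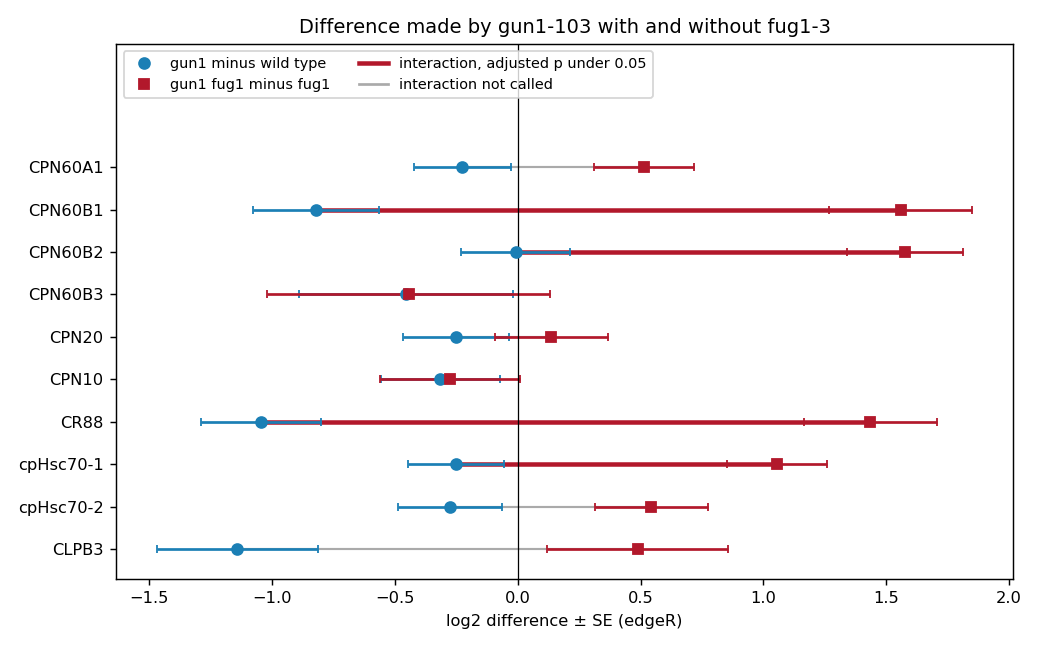
Log2 difference ± SE made by gun1-103 in the wild-type background (circles) and in fug1 (squares) for the 10 genes tested; the line between the points is the interaction, thick and red where its adjusted p was under 0.05. CR88, CPN60B1, CPN60B2 and cpHsc70-1 have the called interactions of 2.48, 2.38, 1.58 and 1.31.

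HSP21 (AT4G27670, chromosome 4, 13818825 to 13819971, minus strand) was removed by the filter on low counts and is described from its counts. It had 0, 1 and 1 counts in wild type, 7, 3 and 2 in gun1, 0, 0 and 0 in fug1, and 126, 83 and 2 in gun1 fug1, which are 9.56, 7.71 and 2.40 CPM in the last. Every gun1 fug1 library was above all others on the CPM scale, although the last holds 2 counts only. Pooled over libraries, the level in gun1 fug1 was 264 times that of wild type, with an exact 95% counting interval of 72.3 to 2198, and 27.8 times that of gun1 (15.6 to 54.8). With no count in fug1 and a floor of 3 counts over that group, it was at least 74-fold higher than in fug1. These intervals and the floor cover counting error only. A two-sided exact permutation test of the CPM values gave p = 0.1 for each of these 3 comparisons, the smallest that 3 against 3 libraries allow. HSP21 could pass a lower filter only through the group in which it is high, so no test across genes is given for it.

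Ratios of counts within a library do not depend on how libraries are scaled. The ratio of CPN60A1 to the sum of the 3 beta genes was 1.92, 2.41 and 2.39 in wild type, 2.09, 2.92 and 2.67 in gun1, 2.80, 2.1 and 2.70 in fug1, and 1.16, 1.53 and 1.00 in gun1 fug1. Each gun1 fug1 library had a lower ratio than each other library. The difference from wild type was -0.88 on the log2 scale (two-sided exact permutation p = 0.1, the smallest possible, and 0.3 adjusted over the 9 ratios computed). The ratio of cpHsc70-1 to cpHsc70-2 was 1.87, 2.19 and 2.40 in wild type, 1.92, 2.01 and 2.76 in gun1, and 2.95, 2.25 and 3.22 in fug1. In gun1 fug1 it was 3.79, 3.26 and 8.33, without overlap with wild type (log2 difference 1.13, exact p = 0.1, adjusted 0.3). The lowest of these lay close to the highest fug1 value. Without gun1 fug1 3 the differences of these ratios from wild type were -0.74 and 0.71 (exact p = 0.1 each, the smallest that 2 against 3 libraries allow, adjusted 0.225). Permuted within each GUN1 state, the fug1-3 allele went with a log2 difference of 0.73 in that ratio (exact p = 0.01, adjusted 0.09), or 0.52 without gun1 fug1 3 (exact p = 0.025, adjusted 0.075).

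The ratio of CPN20 to CPN60A1, lid to barrel, was 0.65, 0.65 and 0.66 in wild type and 0.71, 0.62 and 0.6 in gun1. It was 0.69, 0.48 and 0.61 in fug1, and 0.47, 0.47 and 0.43 in gun1 fug1, so fug1 2 came close to gun1 fug1. Every gun1 fug1 library was below every wild-type library (log2 difference -0.52, exact p = 0.1, adjusted 0.3), and the difference was -0.47 without gun1 fug1 3. The ratio of CPN60B1 to CPN60B2 was 1.17, 1.71 and 0.96 in wild type, 0.69, 0.69 and 0.75 in gun1, 0.64, 0.77 and 0.66 in fug1, and 0.51, 0.49 and 2.26 in gun1 fug1. It lay below every wild-type library in every mutant library but gun1 fug1 3. The log2 differences were -0.81 in gun1 and -0.85 in fug1 (exact p = 0.1 each, adjusted 0.45 and 0.3) and -0.59 in gun1 fug1 (exact p = 0.5), or -1.31 without gun1 fug1 3. Without that library, each allele permuted within the other gave exact p = 0.005, adjusted 0.045, for this ratio. That p is the smallest that 200 arrangements allow, and leaving out this library, which had the outlying ratio, was chosen after seeing the data. With gun1 fug1 3 kept, p was 0.57 for gun1-103 and 0.495 for fug1-3.

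Ratios to the mitochondrial counterparts set the plastid genes beside proteins of the same families in the other organelle. CR88 to HSP89.1, a mitochondrial HSP90, was 4.38, 6.06 and 3.96 in wild type, 1.74, 2.09 and 1.55 in gun1, 1.29, 2.74 and 2.44 in fug1, and 3.61, 4.02 and 6.20 in gun1 fug1. All gun1 and fug1 libraries lay below all others, by -1.41 and -1.20 from wild type on the log2 scale (exact p = 0.1 each, adjusted 0.45 and 0.3). The sum of the plastid CPN60 genes to that of the mitochondrial HSP60 genes was 8.89 to 12.31 in wild type, against 9.11 to 14.39 in gun1 fug1, which overlap. Its log2 differences from wild type were -0.25 in gun1 and -0.04 in fug1 (exact p = 0.6 and 0.9). For the plastid to mitochondrial HSP70 sums they were -0.49, -0.57 and 0.13 in gun1, fug1 and gun1 fug1 (exact p = 0.3, 0.1 and 0.4). CLPB3 to CLPB4 gave -0.35, 0.48 and -1.49 (exact p = 0.7, 0.4 and 0.2). Of these ratios only CR88 to HSP89.1 separated both gun1 and fug1 from wild type. No ratio passed an adjusted p of 0.05 in the comparisons with all 12 libraries.

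**Figure D4:**
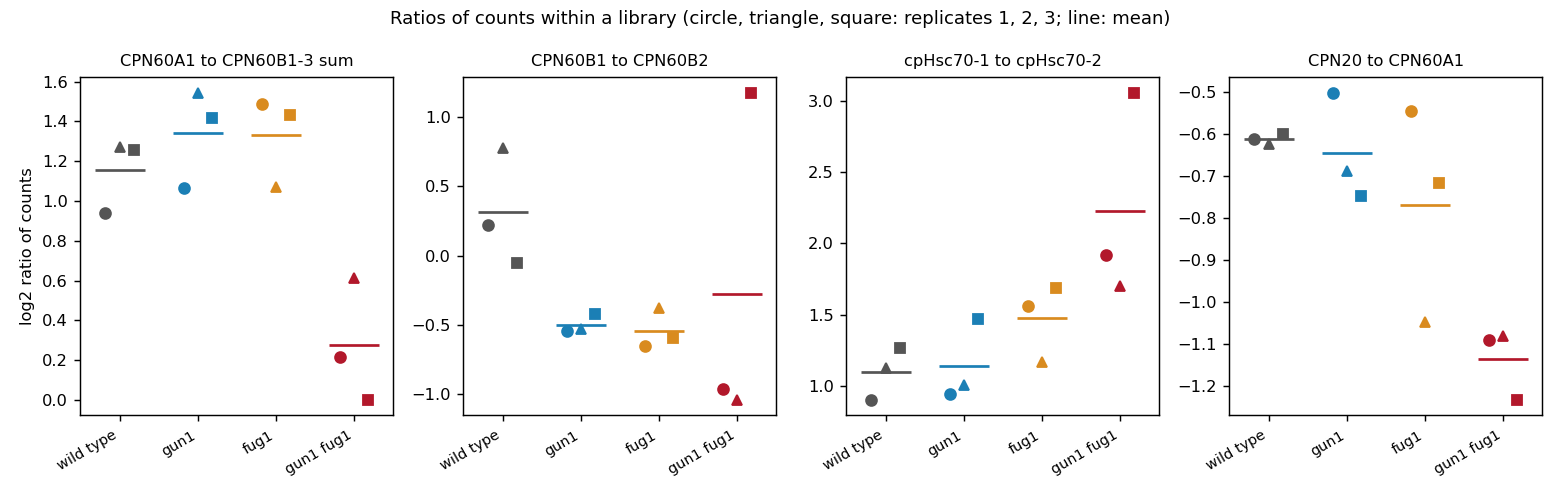
Log2 ratio of counts (vertical axis) of 4 pairs of members or sums of members in each library (circle, triangle and square for replicates 1, 2 and 3; line for the mean of 3). The 3 gun1 fug1 libraries have the lowest ratios of CPN60A1 to the beta sum and of CPN20 to CPN60A1, and the highest of cpHsc70-1 to cpHsc70-2.

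Across the 12 libraries CPN60B1 and CR88 had the highest correlation of log2 levels among members (r = 0.91, and 0.96 over 11 libraries without gun1 fug1 3). The pair cpHsc70-1 and CPN60B2 gave 0.86 and 0.92, while cpHsc70-1 and cpHsc70-2 gave 0.04 and 0.59. All such values are descriptions over points that share library, depth and scaling. Outside the members, the genes most like CR88 over 12 libraries were CLPC1, the HSP100 of plastid import and proteolysis (r = 0.94), emb1211 (0.94), AT5G12120 (0.93), AT2G03420 (0.93) and AT3G49560 (0.93). Over 11 libraries they were EX2 (0.97), CLPC1 (0.96), CCD1 (0.96), MUG7 (0.96) and ECT8 (0.95). Most like CPN60A1 were AMY3, a plastid alpha-amylase (0.92), CHL (0.90), AT1G24560 (0.89), CNX3 (0.89) and AT5G12110 (0.88), and over 11 libraries AMY3 (0.92), SYP21, DTX1, AT5G66530 and AT5G01375 (each 0.90).

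Co-chaperones and other plastid partners of the members differed in direction among themselves. Of 18 listed, 16 were tested. In gun1 2 fell, VIPP1, which maintains thylakoid membranes (-1.33 ± 0.21, edgeR adjusted p = 0.000688), and CGE1, the nucleotide exchange factor of plastid HSP70 (-0.84 ± 0.24, adjusted p = 0.0355). In fug1 4 fell, with VIPP1 at -1.1 and CGE1 at -1.05, and the J-domain gene J11 rose (1.1 ± 0.22, adjusted p = 0.00176). In gun1 fug1 3 rose and 3 fell: J11 had 1.00 ± 0.22 and DJA5, another J-domain gene, 1.57 ± 0.39, while J8 had -0.73 ± 0.22. The interaction of VIPP1 was 1.74 ± 0.32 (adjusted p = 0.00941). Without gun1 fug1 3 these 4 values were 1.07, 1.31, -0.69 and 1.70, all still called. Over the 16 the median log2 fold change from wild type was -0.58 for gun1, -0.57 for fug1 and -0.33 for gun1 fug1.

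Of 6 Rubisco assembly genes, whose products act after the CPN60 barrel, 3 were called lower in gun1 fug1, where 9.88% of all genes were. None was called higher, and the 6 values ran from -1.50 to 1.11. In gun1 fug1 BSD2 (-1.50 ± 0.24, edgeR adjusted p = 0.000163) and RBCX2 (-0.81 ± 0.24, adjusted p = 0.0181) fell, with values of -1.53 and -0.88 without gun1 fug1 3. In fug1 BSD2 fell (-0.90 ± 0.22, adjusted p = 0.00678). Neither was called in gun1 with all 12 libraries, but without gun1 fug1 3 BSD2 was called lower there (-0.62, edgeR adjusted p = 0.0467). Of 8 mitochondrial chaperone genes, mtHsc70-2 rose in gun1 fug1 (0.82 ± 0.28, adjusted p = 0.0356, and 0.86 without gun1 fug1 3) and CLPB4, the mitochondrial relative of CLPB3, fell in fug1 (-1.86 ± 0.61, adjusted p = 0.0381). Of all genes 12% rose in gun1 fug1 and 7.88% fell in fug1, so 1 of 8 is near each share.

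Of 14 listed heat shock genes that encode proteins outside the plastid, 5 passed the filter, and these 5 rose in gun1 fug1. Of all genes 12% rose there. The summed level of the 14 listed genes, without any filter, was 13 to 17 CPM in wild type, 15 to 28 in gun1, 13 to 17 in fug1 and 40.3 to 85.6 in gun1 fug1, so that the last did not overlap with the others. Much of the sum was HSP70-4, with a mean of 10.5 CPM in wild type and 34.8 in gun1 fug1. The other 9 genes have no test, and among them HSP17.8 had 0.0528 CPM in wild type and 0.031 in gun1 fug1. ROF2, an HSP90 co-chaperone (2.66 ± 0.39, edgeR adjusted p = 5.66e-05), HSP90.1 (2.47 ± 0.39, adjusted p = 0.000183) and HSP70-4 (1.76 ± 0.29, adjusted p = 0.000410) rose against wild type. The interaction was called for ROF2 (3.37 ± 0.67, adjusted p = 0.0154) and HSP90.1 (2.81 ± 0.63, adjusted p = 0.0296). Without gun1 fug1 3 the 3 values were 2.68, 2.53 and 1.82 and the interactions 3.40 and 2.90, all called. In gun1 and fug1 none of the 5 was called. Among 18 other chaperone genes of the cytosol and endoplasmic reticulum, 4 rose and 2 fell in gun1 fug1, with HSP70-2 at 2.01 ± 0.36, BIP2 at 1.03 ± 0.25 and BIP1 at 0.81 ± 0.20, or 1.88, 1.09 and 0.82 without gun1 fug1 3. With all 12 libraries 12% of all genes rose and 9.88% fell in gun1 fug1, and 2 falls among 18 genes are near the latter share.

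**Figure D5:**
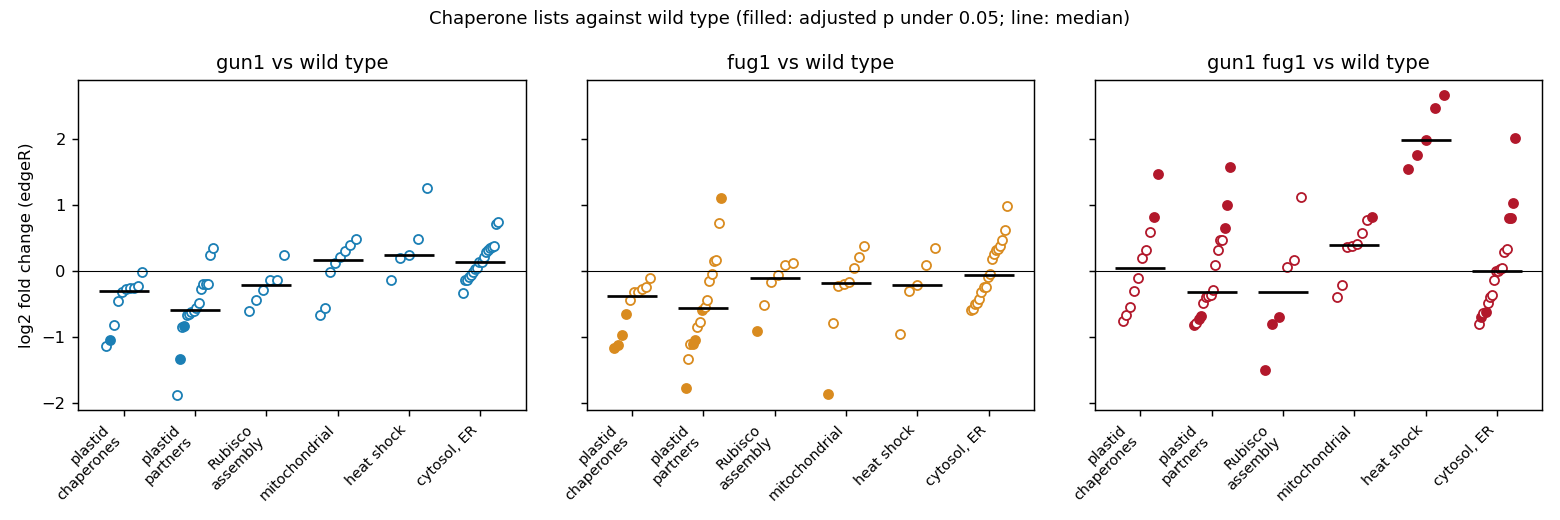
Log2 fold change against wild type (vertical axis, edgeR) of every tested gene of 6 chaperone lists in gun1, fug1 and gun1 fug1 (panels); filled points had an adjusted p under 0.05 and black lines are medians. The 5 tested heat shock genes lie above 0 in gun1 fug1, from 1.54 to 2.66, while the plastid chaperones spread from -0.76 to 1.47.

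Markers of other organs and stages moved in the same libraries. The 8 root and root hair genes had a summed level of 1.9 to 6.42 CPM in wild type, 10.9 to 66.2 in gun1, 26.4 to 44.0 in fug1 and 32.4 to 73.8 in gun1 fug1, and 4, 7 and 8 of them rose in the mutants. For 6 seed storage and oil body genes the sums were 5.70 to 15.4 CPM in wild type, 37.3 to 77.8 in gun1, 35 to 51.8 in fug1 and 56.2 to 79.2 in gun1 fug1, and 3, 4 and 3 of 4 tested rose. Of all genes 3.52%, 9.94% and 12% rose in gun1, fug1 and gun1 fug1. None of the 5 leaf markers was called in any mutant. The part of these organ and stage markers in the values of the chaperone genes was not tested.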

How the data were processed

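RNA of 12 seedling libraries, 3 for each of 4 genotypes, was measured by RNA sequencing with an Illumina TruSeq kit, per the labels. The authors deposited 1 table per library that holds whole-number, unnormalised counts for every gene ID. Per the submitters' processing notes, Trimmomatic, FastQC, TopHat2 2.1.1, featureCounts and TAIR10 were used. The annotation version, the strand setting and the handling of reads with more than 1 possible gene are not given in the sources used here. Plastid-encoded genes held 53.4% to 84.4% of the counts. Precision for the members rests on the rest of each library and on how that rest is spread over genes. In gun1 fug1 3 the plastid share was lowest, but the gene AT2G41310 alone held 33.6% of the nuclear counts. The top nuclear gene of each other library held 1.87% to 8.40%. The effective size of gun1 fug1 3 was 833572, against 7362420 to 25245304 in the others.

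Genotype labels gave the groups, and titles gave the replicate numbers. For gun1 fug1, tables carry a number 1 above that of the title, and the titles were used. Symbols, positions and sequences came from RefSeq's TAIR10.1 annotation and genome. All 11 members were matched by gene ID.

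The count model was that of edgeR 4.0.16 (R 4.3.3): filterByExpr by genotype, TMM scaling and a robust quasi-likelihood fit with genotype as the only factor to all 12 libraries. The quasi-likelihood F test gave 7 comparisons, adjusted by Benjamini-Hochberg over the 15371 genes tested, and an adjusted p under 0.05 was a call. Levels are CPM from TMM-scaled library sizes with their SD, and fold changes are log2 with their SE. Ratios used counts plus 0.5 on the log2 scale and two-sided exact permutation tests over all arrangements (numpy 2.4.6). For a mutant against wild type the libraries of the 2 groups were permuted. For an allele they were permuted within each state of the other allele. The exact counting intervals of HSP21 came from scipy 1.17.1. Correlations used log2 levels with a prior count of 2. The procedure was tested on simulated counts.

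The members and lists were chosen with earlier results of these data known. All members are named. From every other list up to 3 called genes with the smallest p are named per comparison (with an exception that is not reported here), and also GUN1, FUG1, loci that overlap a member and the 5 genes most like CPN60A1 and CR88. Same-numbered libraries deviated together in 3 of 18 pairs (r over 0.1, range -0.08 to 0.36), against 3 of 36 pairs of different number (range -0.39 to 0.17). The highest values were between wild type and gun1, with 0.36 for replicate 3 and 0.315 for replicate 1. The main fit did not pair samples by number, and the replicate block below did. Alternatives were RLE factors, library totals, organelle genes left out, no filter, a stricter filter, DESeq2 1.42.0, limma-voom (limma 3.58.1), the compared groups alone, a replicate block, a pseudocount of 5 for ratios and leaving out each library. The scalings and ratios without gun1 fug1 3 were chosen after seeing the data, as was a lowered filter that lets HSP21 in through gun1 fug1, whose p-values are not used.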

Additional observations from a re-analysis of the deposited data

Results flagged for a closer look

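For 4 members the change made by gun1-103 differed between the wild-type and the fug1 background by a test of the difference itself (interaction, edgeR's quasi-likelihood test, adjusted p under 0.05). The interaction was 2.48 for CR88 and 2.38 for CPN60B1, on the log2 scale. It was 1.58 for CPN60B2 and 1.31 for cpHsc70-1. The root and seed markers move with the genotypes too, and their part in these values was not tested.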

How the results depend on the processing

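The scaling of libraries moved the counts most, for all genes as for the members. Scaling by library totals alone moved the median log2 change of all genes against wild type to -0.54 for gun1, -1.16 for fug1 and -1.17 for gun1 fug1. Under it no member was called in any comparison: 0 instead of 1 lower in gun1, 4 lower in fug1, 2 higher in gun1 fug1, 4 higher against gun1, 4 higher against fug1 and 4 with an interaction. Few genes of any kind were called there: 1 was lower and 0 higher in gun1, 8 lower and 0 higher in fug1, 43 higher in gun1 fug1 than in wild type, 3 than in gun1, 1 than in fug1, and 0 had an interaction, so these counts of 0 say nothing of the members.

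With library totals and gun1 fug1 3 left out, the lower members numbered 9 for gun1, 10 for fug1 and 4 for gun1 fug1, where 33.1%, 73.3% and 35.8% of all genes were lower. There 1 member was higher in gun1 fug1 (5.24% of genes), 7 were higher in it than in fug1 (17% of genes), 6 were lower in fug1 than in gun1 (25.5%), and 9 had an interaction (44.3%, with a median of 1.05 over all genes). With totals of nuclear genes and gun1 fug1 3 left out, the lower members numbered 7, 8 and 4 (12.9%, 24.8% and 35.3% of genes), 1 was higher in gun1 fug1 (5.44%), and 7 had an interaction (2.15%). Relative to wild type, CPN60B1 in gun1 fug1 turned to -0.80, -0.31 and -0.27 under these 3 scalings, CR88 to -0.87, -0.33 and -0.29, and cpHsc70-1 to -0.37 under library totals. The medians of all genes were -1.17, -0.62 and -0.58 there, so CPN60B1 lay 0.37, 0.31 and 0.31 above them and CR88 0.30, 0.29 and 0.29. Such distances cannot decide which scaling gives the right sign.

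The count of members lower in gun1 was 1, and it was 2 with RLE factors, a stricter filter, DESeq2, limma-voom or the replicate block, and 3 with organelle genes left out (also without gun1 fug1 3), no filter or the compared groups alone. The compared groups alone gave 2 members higher in gun1 fug1 than in gun1 and 2 than in fug1. Members lower in gun1 fug1 than in wild type numbered 1 with no filter or with the replicate block. With the block, CLPB3 was called lower in gun1 (-1.17) and in gun1 fug1 (-0.80). The cause of these moves was not tested.

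Leaving out each library in turn gave 0 to 3 members lower in gun1, 1 to 4 lower in fug1, 1 to 3 higher and 0 to 1 lower in gun1 fug1, 3 to 4 higher against gun1, 1 to 4 higher against fug1 and 2 to 5 with an interaction. The 7 comparisons of ratios followed, which concern 5 ratios, kept their direction under their alternatives. In each of the 7 the compared groups did not overlap (two-sided exact permutation p = 0.1). Their direction was therefore fixed when 1 library was left out, and those fits are no test of it. CPN60B1 to CPN60B2 in gun1 fug1, which overlapped with wild type (exact p = 0.5), was not among the 7. Low counts limit CPN60B3, HSP21 and every member in gun1 fug1 3, where CLPB3 had 3 counts and cpHsc70-2 had 7.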
